A study of Mus musculus with 47 samples.

Results

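The genes of cholesterol synthesis, transport and export were followed in the medial prefrontal cortex (PFC) of mice after chronic intermittent ethanol (CIE) exposure. The group was set by gene function, with earlier results of these data known. It names 35 genes, and 32 of them had at least 1 probeset that the annotation gives to that gene alone, with 66 such probesets in all. These stand among 18193 genes and 45037 probesets on the array. Of the measured members, 17 of 18 belong to synthesis, 5 of 5 to sterol sensing, 3 of 4 to intracellular transport and storage, and 7 of 8 to export. Acat2, Soat1 and Nr1h2 were not analysed here. Each gene was read on 1 probeset, called its brightest here, which is the one of highest mean level over all arrays once probesets whose suffix marks probes that may bind several transcripts (_x_at) are placed last. This passed over a brighter probeset for Fdft1 (mean level 12.3, against 11.5 for the one used) and for Hsd17b7 (10.1 against 9.32). The other probesets of a gene served as a check.

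Adult male C57BL/6J mice of the CIE groups spent 16 hours a day in a chamber with ethanol vapor (10 to 13 mg/l of air) on 4 days, then had 7 days without ethanol, over 4 such cycles. Each cycle opened with an ethanol injection of 1.6 g/kg. Ctrl mice breathed air, with saline in place of ethanol. The CIE and Ctrl mice alike were given pyrazole at 1 mmol/kg, an inhibitor of alcohol dehydrogenase, so the Ctrl groups are not untreated animals. The PFC was dissected 0h, 8h, 72h or 7d into withdrawal, and each array carried the RNA of 1 mouse. There were 6 mice in each of CIE 0h, CIE 72h and CIE 7d, 5 in CIE 8h, and 6 in each of the 4 Ctrl groups, 47 arrays in all. Levels are log2 RMA (Robust Multi-array Average) intensities, and a change is CIE minus Ctrl on that scale, so -1 would be a halving. A change was called at an adjusted p of 0.01 or less in a limma fit over all probesets. A level compares mice on 1 probeset and does not compare genes with each other.

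Brain cells make nearly all of their own cholesterol, because lipoproteins do not cross the blood-brain barrier. The pathway runs from acetyl-CoA through mevalonate and squalene to lanosterol and on to cholesterol. Its genes are switched on by the transcription factor SREBP2 (Srebf2), which is held in the endoplasmic reticulum by Scap and the Insig proteins when sterols are plentiful. In the adult brain astrocytes are a main source. They export cholesterol through ABC transporters onto apolipoprotein E (Apoe), under control of the oxysterol-sensing liver X receptors. Neurons dispose of cholesterol by 24-hydroxylation through Cyp46a1.

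The array of CIE 8h mouse 15 stood apart, with a mean correlation of 0.967 with the other arrays, against 0.985 to 0.994 for the other 46. Its fellow CIE 8h mouse 23 (0.988) was also among the 9 arrays below 0.99, of which 2 each were in CIE 0h, CIE 8h, CIE 72h and Ctrl 0h, and 1 was in Ctrl 7d. Both of these 8h mice belong to repeat group 2 of the labels, which held 8h mice alone (2 CIE and 3 Ctrl), while repeat group 1 held 3 CIE and 3 Ctrl mice at 8h and every mouse of the other times. The cortical neuron markers, a list that also holds general neuronal genes, had a mean level per array between 12.1 and 12.4. No other region was compared, so this level does not test the tissue label. At 8h the median change was 0.01 over 13 astrocyte markers, with Ntsr2 called lower and a mean level of 10.9 to 11.1 in the CIE and in the Ctrl mice, -0.03 over 13 oligodendrocyte and myelin markers and 0.01 over 10 cortical neuron markers, with none of the 13 or the 10 called. Of 10 microglia markers 1 was called lower (P2ry12, -0.57, with a list median of 0.03), of 6 choroid plexus markers 1 higher (Clic6, 0.61, with a list median of -0.01), and of 2 blood markers 1 lower (Alas2, -0.77, with a list median of -0.45 and a mean level of 4.62 to 5.01 in CIE and 4.98 to 5.43 in Ctrl mice). Markers of striatum, a neighbouring region, had a median change of 0.67 at 0h (8 of 8 positive, mean level 8.87 to 10.7 in CIE and 8.60 to 9.20 in Ctrl mice) and 0.40 at 72h (8 of 8 positive), with none called, and 0.02 at 8h. The part of these markers in the results was not tested.

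At 8h of withdrawal, 5 of the 32 members were lower in CIE than in Ctrl PFC and 0 were higher. They were Hmgcs1, Sqle, Cyp51 and Sc5d, 4 enzymes of synthesis, and Stard4, a carrier of cholesterol inside the cell. The falls lay between 0.24 and 0.51 on the log2 scale. The 5 genes make 15.6% of the measured members, where 1.11% of all probesets were called lower at 8h and 2.28% higher. Over the brightest probeset of each gene on the array the share called lower was 1.28%. The median change was -0.18 over the 32 members and 0.01 over all probesets, and 23 of the 32 changes (71.9%) were negative, against 48.4% of all probesets. At an unadjusted p under 0.05 there were 15 members, the 5 included, where 28.1% of all probesets passed. In whole PFC, fewer cells of a type and less RNA per cell cannot be told apart.

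**Figure D1:**
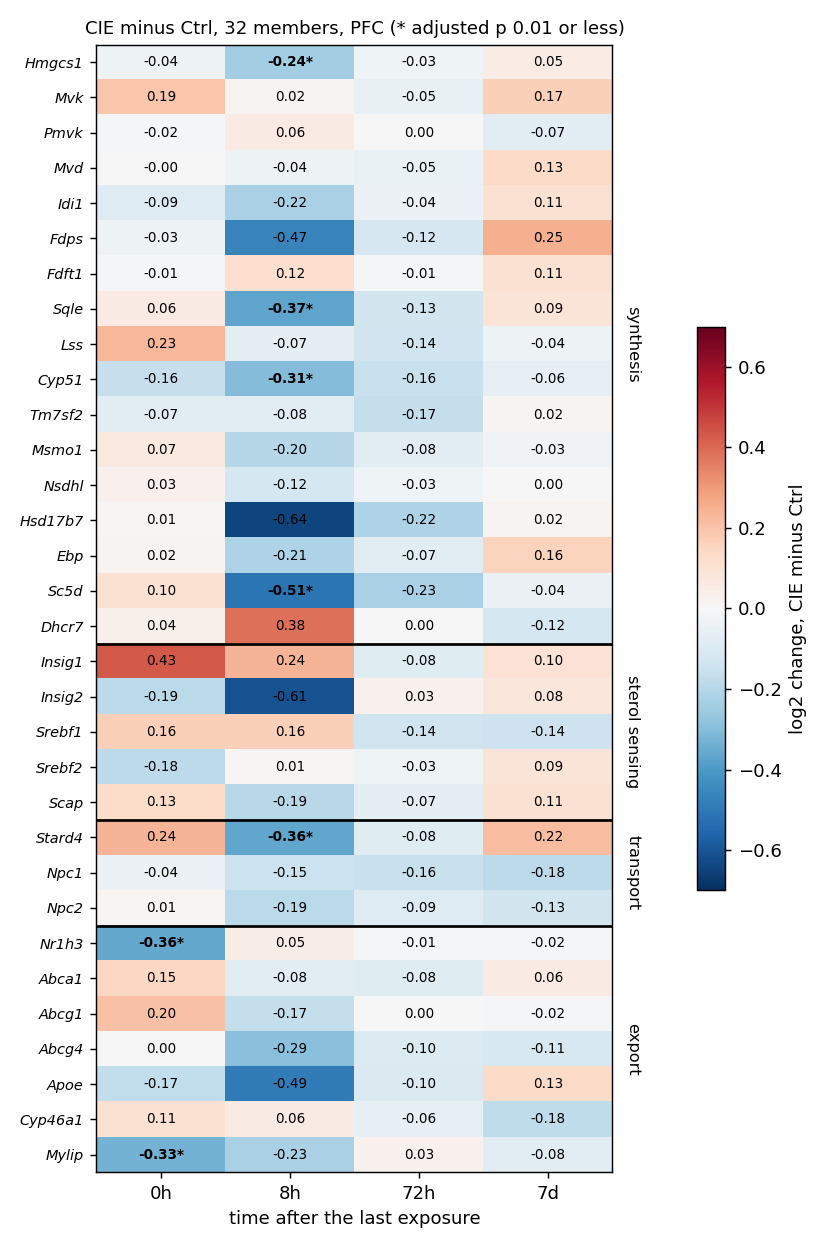
Change of each of the 32 members (rows, by role) at each time after the last exposure (columns), as log2 CIE minus Ctrl on the brightest probeset, with red for higher and blue for lower in CIE and an asterisk for an adjusted p of 0.01 or less. The 8h column holds 5 called changes, all lower and 4 of them in synthesis, the 0h column holds Nr1h3 and Mylip, and the 72h and 7d columns hold none.

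Hmgcs1 encodes the cytosolic HMG-CoA synthase, which makes the precursor of mevalonate. In CIE 8h mice it read 13.20, 13.38 and 13.38 in mice 40, 51 and 69 of repeat group 1 and 13.01 and 13.26 in mice 15 and 23 of repeat group 2, against 13.32, 13.51 and 13.55 in Ctrl 8h mice (lowest, median, highest). The groups overlapped, with 3 of 5 CIE mice below every Ctrl mouse. The mean fell by 0.24 ± 0.06 (SE, adjusted p = 0.0079), and on the linear scale it fell by 15.4%. At 0h, 72h and 7d its changes were -0.04, -0.03 and 0.05.

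Sqle encodes squalene epoxidase, the first oxygen-requiring step after squalene. It read 10.54, 10.88 and 10.77 in CIE mice 40, 51 and 69 and 10.56 and 10.72 in mice 15 and 23, against 10.89, 11.08 and 11.26 in Ctrl 8h mice. All 5 CIE mice lay below all 6 Ctrl mice, and they did so in both repeat groups. The fall was 0.37 ± 0.09 (SE, adjusted p = 0.0061), and the linear level fell by 22.6%. The other times gave 0.06 at 0h, -0.13 at 72h and 0.09 at 7d, none called.

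Cyp51 encodes lanosterol 14-alpha-demethylase, which starts the conversion of lanosterol. Its levels were 9.74, 9.87 and 9.94 in CIE mice 40, 51 and 69 and 9.84 and 9.68 in mice 15 and 23, against 10.02, 10.14 and 10.18 in Ctrl 8h mice. Here too the groups did not overlap, and mouse 15 was not the lowest. The mean fell by 0.31 ± 0.06 (SE, adjusted p = 0.0021), and the linear level fell by 19.1%. Cyp51 was also below the Ctrl mean in 6 of 6 CIE mice at 0h (-0.16, adjusted p = 0.061) and at 72h (-0.16, adjusted p = 0.20), where the 2 groups did not overlap and the change did not pass.

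Sc5d encodes sterol C5-desaturase, which acts near the end of the pathway. It read 10.71, 11.02 and 10.93 in CIE mice 40, 51 and 69 and 10.21 and 10.56 in mice 15 and 23, against 11.05, 11.22 and 11.24 in Ctrl 8h mice. No CIE mouse reached the lowest Ctrl mouse, and mice 15 and 23 gave the 2 lowest values. The fall was 0.51 ± 0.12 (SE, adjusted p = 0.0054), and the linear level fell by 29.8%.

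Stard4 encodes a START-domain protein that moves cholesterol between membranes and is itself under SREBP2 control. Its levels were 9.53, 9.88 and 9.90 in CIE mice 40, 51 and 69 and 9.56 and 9.57 in mice 15 and 23, against 9.85, 10.05 and 10.24 in Ctrl 8h mice. Mice 51 and 69 lay within the Ctrl range and the other 3 lay below it. The mean fell by 0.36 ± 0.09 (SE, adjusted p = 0.0075), and the linear level fell by 22.3%. Stard4 was higher than the Ctrl mean in 5 of 6 CIE mice at 0h (0.24, adjusted p = 0.052) and in 6 of 6 at 7d (0.22, adjusted p = 0.16), and neither change passed.

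**Figure D2:**
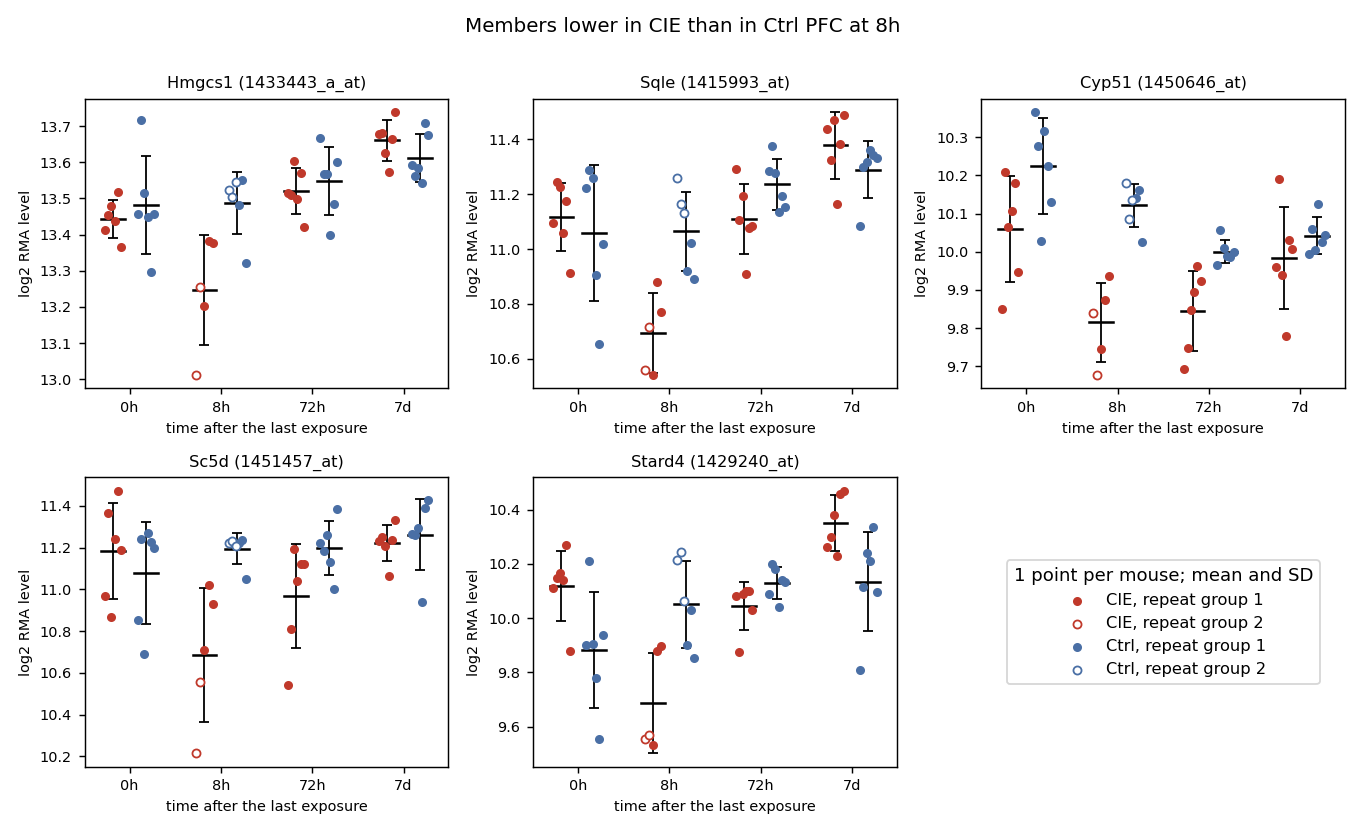
Log2 RMA level of the 5 members called lower at 8h, 1 point per mouse, by time after the last exposure, with CIE in red left of Ctrl in blue, repeat group 2 as open points, and bars for the mean and SD. At 8h all 5 CIE mice lie below all 6 Ctrl mice for Sqle, Cyp51 and Sc5d, while Hmgcs1 and Stard4 overlap.

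Groups that do not overlap at 8h were seen for these 3 members of 32, where 6.37% of all probesets and 6.62% of the brightest probesets of all genes had them. The share among the members is thus near the background. The 3 genes all lie in synthesis, which holds 17 of the 32 measured members.

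The start regions of Hmgcs1, Cyp51 and Sc5d, members that were lower together at 8h, and of the exporter Abca1 are shown for comparison as the 250 bases before the start site (RefSeq, build GRCm38.p6, 5′ to 3′ on the gene's strand). Capitals mark the sterol regulatory element TCACNCCAC, a consensus that SREBP is known to bind, and CCAAT, the box bound by NF-Y, each searched on both strands (CCAAT on the other strand reads ATTGG).
Hmgcs1, chr13:119690101-119690350, plus strand: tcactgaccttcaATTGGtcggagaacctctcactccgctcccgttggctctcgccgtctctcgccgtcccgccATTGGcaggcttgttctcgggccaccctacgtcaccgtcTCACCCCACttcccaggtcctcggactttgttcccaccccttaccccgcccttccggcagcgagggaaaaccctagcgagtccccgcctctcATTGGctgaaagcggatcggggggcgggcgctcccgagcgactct
Cyp51, chr5:4104698-4104947, minus strand: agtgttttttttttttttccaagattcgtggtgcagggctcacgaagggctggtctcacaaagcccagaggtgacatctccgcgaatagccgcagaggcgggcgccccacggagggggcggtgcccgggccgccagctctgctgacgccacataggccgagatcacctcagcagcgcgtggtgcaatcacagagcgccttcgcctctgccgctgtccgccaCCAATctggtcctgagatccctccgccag
Sc5d, chr9:42264301-42264550, minus strand: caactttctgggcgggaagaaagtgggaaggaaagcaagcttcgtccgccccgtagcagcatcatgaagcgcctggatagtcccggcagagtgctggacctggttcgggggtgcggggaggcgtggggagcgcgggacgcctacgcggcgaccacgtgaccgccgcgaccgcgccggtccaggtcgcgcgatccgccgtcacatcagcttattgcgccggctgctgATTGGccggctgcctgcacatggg
Abca1, chr4:53159896-53160145, minus strand: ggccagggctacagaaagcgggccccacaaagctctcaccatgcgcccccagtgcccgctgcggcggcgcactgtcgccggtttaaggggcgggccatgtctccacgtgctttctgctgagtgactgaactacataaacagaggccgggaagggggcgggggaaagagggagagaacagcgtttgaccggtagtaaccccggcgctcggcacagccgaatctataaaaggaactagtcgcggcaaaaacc
Hmgcs1 carried TCACCCCAC beginning 137 bases before its start site, together with 3 CCAAT boxes in the stretch shown, and none of these matches overlapped another. Cyp51 and Sc5d each had 1 CCAAT box, whose leftmost base lies 29 and 24 bases before the start, and Abca1 had none. Over windows running from 250 bases before to 50 bases after the start, CCAAT was found in all 14 synthesis genes that have a window and in 2 of 5 export genes, against 41.1% of 27025 genes. The GC box GGGCGG was found in 13 of the 14 synthesis genes and 3 of the 5 export genes, against 38.2% of all genes. The element TCACNCCAC itself was found in Hmgcs1 alone among 25 members with a window, against 1.44% of all genes. These are counts of letters in short windows and were not tested. Only exact matches to the strings were counted, so an element that departs from TCACNCCAC in 1 letter was missed. A gene without a match may therefore still carry such an element. No window was used for Sqle, Stard4, Fdps, Fdft1, Npc1, Abcg1 and Abcg4.

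Across all 17 synthesis genes at 8h, 13 changes were negative and the median was -0.20. Among those not called, Idi1 (isopentenyl-diphosphate isomerase) and Msmo1 (methylsterol monooxygenase) were below the Ctrl mean in 5 of 5 CIE mice, by 0.22 (adjusted p = 0.055) and 0.20 (adjusted p = 0.072). Pmvk, Mvk and Fdft1, whose product makes squalene, had changes of 0.06, 0.02 and 0.12, and the brighter probeset of Fdft1 that was passed over gave -0.04. Mvd, Lss, Tm7sf2, Nsdhl and Ebp lay between -0.21 and -0.04. None of these 10 genes passed on its brightest probeset, while a second Msmo1 probeset, given below, was called lower.

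In several uncalled members the change rested on mice 15 and 23. Hsd17b7, a 3-ketosteroid reductase of the pathway, read 9.40, 9.35 and 9.40 in CIE mice 40, 51 and 69 but 7.24 and 8.50 in mice 15 and 23, against 9.15, 9.43 and 9.66 in Ctrl 8h mice. The low values were on this probeset alone, and in repeat group 2 the brighter one that was passed over gave a change of 0.13 and the other 2 gave -0.17 and 0.22. Fdps (farnesyl diphosphate synthase) read 10.70, 11.18 and 11.01 in the first 3 mice and 9.56 and 10.07 in the other 2, against 10.76, 10.98 and 11.10 in Ctrl 8h mice. On these probesets both genes were low in the CIE mice of repeat group 2, and in those of repeat group 1 they lay at or near the Ctrl range. Dhcr7, which makes cholesterol in the last step, went the other way, with 7.98, 8.44 and 8.46 in mice 40, 51 and 69 and 9.51 and 9.20 in mice 15 and 23, against 8.17, 8.32 and 8.52 in Ctrl 8h mice. Their changes of -0.64 (adjusted p = 0.046), -0.47 (adjusted p = 0.19) and 0.38 (adjusted p = 0.14) did not pass.

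Within repeat group 1 at 8h (3 CIE and 3 Ctrl mice) the median change of the 17 synthesis genes was -0.09, with 11 negative. Within repeat group 2 (2 CIE and 3 Ctrl mice) it was -0.23, with 13 negative. On their brightest probesets Hmgcs1, Sqle, Cyp51, Sc5d and Stard4 were lower in CIE in both, by 0.13, 0.21, 0.26, 0.28 and 0.16 in repeat group 1 and by 0.39, 0.55, 0.37, 0.84 and 0.61 in repeat group 2. The size of the fall on these probesets was nearest between the 2 repeat groups for Cyp51. The other 2 Cyp51 probesets gave -0.13 and -0.31 in repeat group 1 but 0.23 and 0.17 in repeat group 2. The other 2 Stard4 probesets gave 0.12 and -0.35 in repeat group 1 and -1.52 and -0.23 in repeat group 2. Some other probesets of Hmgcs1 and Sc5d also changed sign between the repeat groups. Without the 9 arrays that correlate below 0.99, mice 15 and 23 among them, Cyp51 and Sc5d of the 5 were called and the synthesis median was -0.06. Without mouse 15 alone 1 of the 5 (Cyp51) was called, without mouse 23 alone 0, without mouse 40 alone 2, and with repeat group 1 alone 0. Leaving out single Ctrl mice left 1 called without mouse 75, 2 without mouse 32, 42 or 50 and 3 without mouse 66. In a fit of the 8h arrays by themselves, where the spread is estimated from these arrays and not from all 47, the changes were the same and 0 were called, with adjusted p between 0.035 (Cyp51) and 0.10 (Hmgcs1). In the fit with repeat group as a term 7 members were called, these 5 with Hsd17b7 and Insig2. That fit also called more of all 45037 probesets at 8h, 3004, where the main fit called 1028 higher and 499 lower. The part of the repeat group and of the array quality in the change at 8h was not tested.

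**Figure D3:**
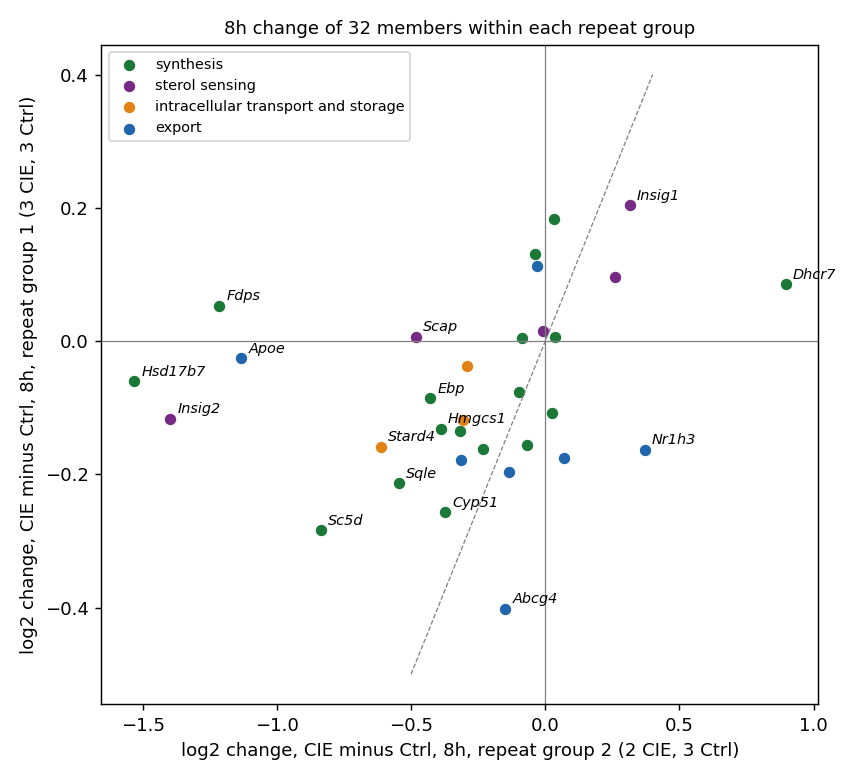
Log2 change at 8h (CIE minus Ctrl) of the 32 members on their brightest probesets within repeat group 1 (vertical axis) and within repeat group 2 (horizontal axis), coloured by role, with a dashed line of equal change. Cyp51, Sqle, Sc5d, Hmgcs1 and Stard4 are negative on both axes, while Hsd17b7, Insig2, Fdps and Apoe lay below -1.1 in repeat group 2 and lay between -0.12 and 0.05 in repeat group 1.

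Other probesets of the same genes gave a mixed check at 8h. A second Hmgcs1 probeset (mean level 11.7 over all arrays) was lower by 0.53 (adjusted p = 0.0050), with 11.34, 11.71 and 11.59 in CIE mice 40, 51 and 69 and 10.41 and 11.18 in mice 15 and 23, against 11.54, 11.77 and 11.94 in Ctrl 8h mice. The other 3 Hmgcs1 probesets (mean levels 12.99, 12.6 and 6.17) gave -0.07, -0.03 and -0.08, none called. A second Sc5d probeset (mean level 8.79) read 8.30, 8.41 and 8.52 in CIE mice 40, 51 and 69 and 8.71 and 8.62 in mice 15 and 23, against 8.55, 9.02 and 9.06 in Ctrl 8h mice. On this probeset mice 15 and 23 were the highest of the 5, and the fall of 0.43 ± 0.09 (SE, adjusted p = 0.0015) was called. A second Msmo1 probeset (mean level 6.11) was lower by 0.81 (adjusted p = 0.0012), with 5.59, 5.71 and 5.53 in CIE mice 40, 51 and 69 and 5.02 and 5.71 in mice 15 and 23, against 5.99, 6.37 and 6.68 in Ctrl 8h mice, and the groups did not overlap. Over all probesets of a gene the mean change was -0.13 for Cyp51 (3 probesets, adjusted p = 0.25) and -0.19 for Hmgcs1 (5 probesets, adjusted p = 0.074), so neither call was kept there. Of the 19 members with several probesets, 9 had all of them on the same side of 0 at 8h.

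At 0h, with the mice just out of the chambers, synthesis showed little. Its 17 members had a median change of 0.01, with 9 positive and 8 negative, and none was called on its brightest probeset. The members called were 2 of 32, both lower and both in export (6.25%). Over all probesets 3.58% were called lower and 3.69% higher at 0h, and 3.48% of the brightest probesets of all genes were called lower, so this share is near the background. Second probesets of 2 synthesis genes were lower at 0h. On the Sc5d probeset of mean level 8.79 the values were 8.32, 8.67 and 8.84 in CIE mice (lowest, median, highest), against 8.90, 9.04 and 9.21 in Ctrl mice, with no overlap and a fall of 0.44 (adjusted p = 2.8e-04), while its brightest probeset gave 0.10. Cyp51 on a probeset of mean level 7.93 was lower by 0.40 (adjusted p = 0.0035), where its brightest probeset gave -0.16.

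The 2 export genes lower at 0h were Nr1h3 and Mylip. Nr1h3 encodes the liver X receptor alpha, and it read 5.39, 5.53 and 5.57 in CIE mice against 5.69, 5.89 and 5.96 in Ctrl mice (lowest, median, highest). The groups did not overlap, and the fall was 0.36 ± 0.09 (SE, adjusted p = 0.0042). Nr1h3 was read on its only probeset, a dim one (mean level 5.65, above that of 41.0% of all probesets). The filter on dim probesets left it out, and no other probeset could serve as a check. Mylip encodes the liver X receptor target IDOL, a ubiquitin ligase that marks lipoprotein receptors for degradation. It read 9.22, 9.39 and 9.59 in CIE mice against 9.46, 9.72 and 9.88 in Ctrl mice, an overlapping pair, and fell by 0.33 ± 0.08 (SE, adjusted p = 0.0045). Leaving out single mice ended the call of Nr1h3 for CIE mouse 43 and Ctrl mice 12 and 56, and that of Mylip for CIE mice 5 and 17 and Ctrl mice 2, 20 and 56. At 8h Mylip was lower by 0.23 (adjusted p = 0.076), and at 72h and 7d both genes lay within 0.08 of Ctrl.

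In sterol sensing, Insig1 at 0h had the largest positive change of any member at any of the 4 times on a brightest probeset, and it missed the threshold. Insig1 encodes an anchor of the Scap complex in the endoplasmic reticulum and is itself an SREBP target. It read 10.54, 10.86 and 11.14 in CIE 0h mice against 9.98, 10.52 and 10.70 in Ctrl 0h mice, higher than the Ctrl mean in 6 of 6 CIE mice, with a difference of 0.43 ± 0.12 (SE, adjusted p = 0.011). It passed when CIE mouse 17 or Ctrl mouse 48 or 78 was left out (adjusted p between 0.0055 and 0.0088). At 8h it read 10.21, 10.78 and 10.73 in CIE mice 40, 51 and 69 and 10.89 and 10.65 in mice 15 and 23, against 10.26, 10.42 and 10.58 in Ctrl mice, a difference of 0.24 (adjusted p = 0.20). Insig1 was thus above the Ctrl mean in 4 of 5 CIE mice at the time when the 5 genes above were low, and this difference did not pass.

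The SREBP genes themselves did not pass at any time. On its brightest probeset Srebf2 had changes of -0.18, 0.01, -0.03 and 0.09 at 0h, 8h, 72h and 7d. At 0h 6 of 6 CIE mice lay below the Ctrl mean (adjusted p = 0.053). The other Srebf2 probeset (mean level 8.27) gave -0.29 at 8h (adjusted p = 0.26) and 0.35 at 7d, neither called. Its change at 8h was -0.17 within repeat group 1 and -0.49 within repeat group 2, so the 2 probesets differ at 8h. Srebf1, which drives mainly fatty acid genes, had changes of 0.16, 0.16, -0.14 and -0.14. Scap lay between -0.19 and 0.13 over the 4 times. Its lowest change, at 8h, was 0.01 within repeat group 1 and -0.48 within repeat group 2. Insig2, the other anchor, read 10.55, 10.39 and 10.46 in CIE 8h mice 40, 51 and 69 and 8.57 and 9.40 in mice 15 and 23, against 10.18, 10.55 and 10.61 in Ctrl 8h mice. Its change of -0.61 (adjusted p = 0.048) rested on the 2 mice of repeat group 2 and was -0.12 in repeat group 1, and its other 2 probesets gave -0.06 and 0.27 at 8h, not called.

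In transport, the lysosomal pair that releases cholesterol, Npc1 and Npc2, had changes of -0.15 and -0.19 at 8h and -0.18 and -0.13 at 7d. Neither passed at any time. Stard4 was therefore the 1 transport gene called.

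No export gene was called on its brightest probeset at 8h, 72h or 7d. At 8h the 7 export genes had a median change of -0.17, with 5 negative. Apoe, the main apolipoprotein of the brain, read 12.65, 12.26 and 12.60 in CIE mice 40, 51 and 69 and 11.44 and 11.72 in mice 15 and 23, against 12.47, 12.60 and 12.85 in Ctrl 8h mice. Its change of -0.49 ± 0.19 (SE, adjusted p = 0.087) was -0.03 within repeat group 1 and -1.13 within repeat group 2. Apoe was among the members that varied most within groups, with a mean SD within groups above that of 92.9% of all probesets.

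Abcg1 passes cholesterol to lipoprotein particles. It read 10.42, 10.67 and 10.61 in CIE 8h mice 40, 51 and 69 and 10.45 and 10.72 in mice 15 and 23, against 10.69, 10.75 and 10.78 in Ctrl 8h mice. Its change of -0.17 (adjusted p = 0.10) had 5 of 5 CIE mice below the Ctrl mean, whereas at 0h 6 of 6 CIE mice lay above it (0.20, adjusted p = 0.029). Abcg4, a neuronal relative, gave opposite signs on its 2 probesets at 8h, -0.29 on the brightest (adjusted p = 0.049) and 0.34 on the other, of mean level 7.09 (adjusted p = 0.0036), where CIE mice 40, 51 and 69 read 7.32, 7.53 and 7.30 and mice 15 and 23 read 7.61 and 7.20, against 6.99, 7.05 and 7.11 in Ctrl mice. No direction can be given for Abcg4. Cyp46a1, the neuronal 24-hydroxylase, had changes of 0.11, 0.06, -0.06 and -0.18 at 0h, 8h, 72h and 7d, none called.

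Abca1, which loads cholesterol onto apolipoproteins, depended on the probeset. On the brightest of its 3 probesets it had changes of 0.15, -0.08, -0.08 and 0.06 at 0h, 8h, 72h and 7d, none called. On a dim probeset, of mean level 4.85, it read 5.00, 5.29 and 5.37 in CIE 72h mice against 4.28, 4.52 and 4.93 in Ctrl 72h mice (lowest, median, highest). At 7d the same probeset read 4.90, 5.25 and 5.45 in CIE mice against 4.17, 4.54 and 4.68 in Ctrl mice. Neither time had overlap, and CIE was higher by 0.67 ± 0.12 (SE, adjusted p = 0.0012) and by 0.73 ± 0.12 (SE, adjusted p = 3.4e-04). The remaining probeset gave -0.08 at 72h and -0.04 at 7d, so of the 3 the dim one alone was called.

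**Figure D4:**
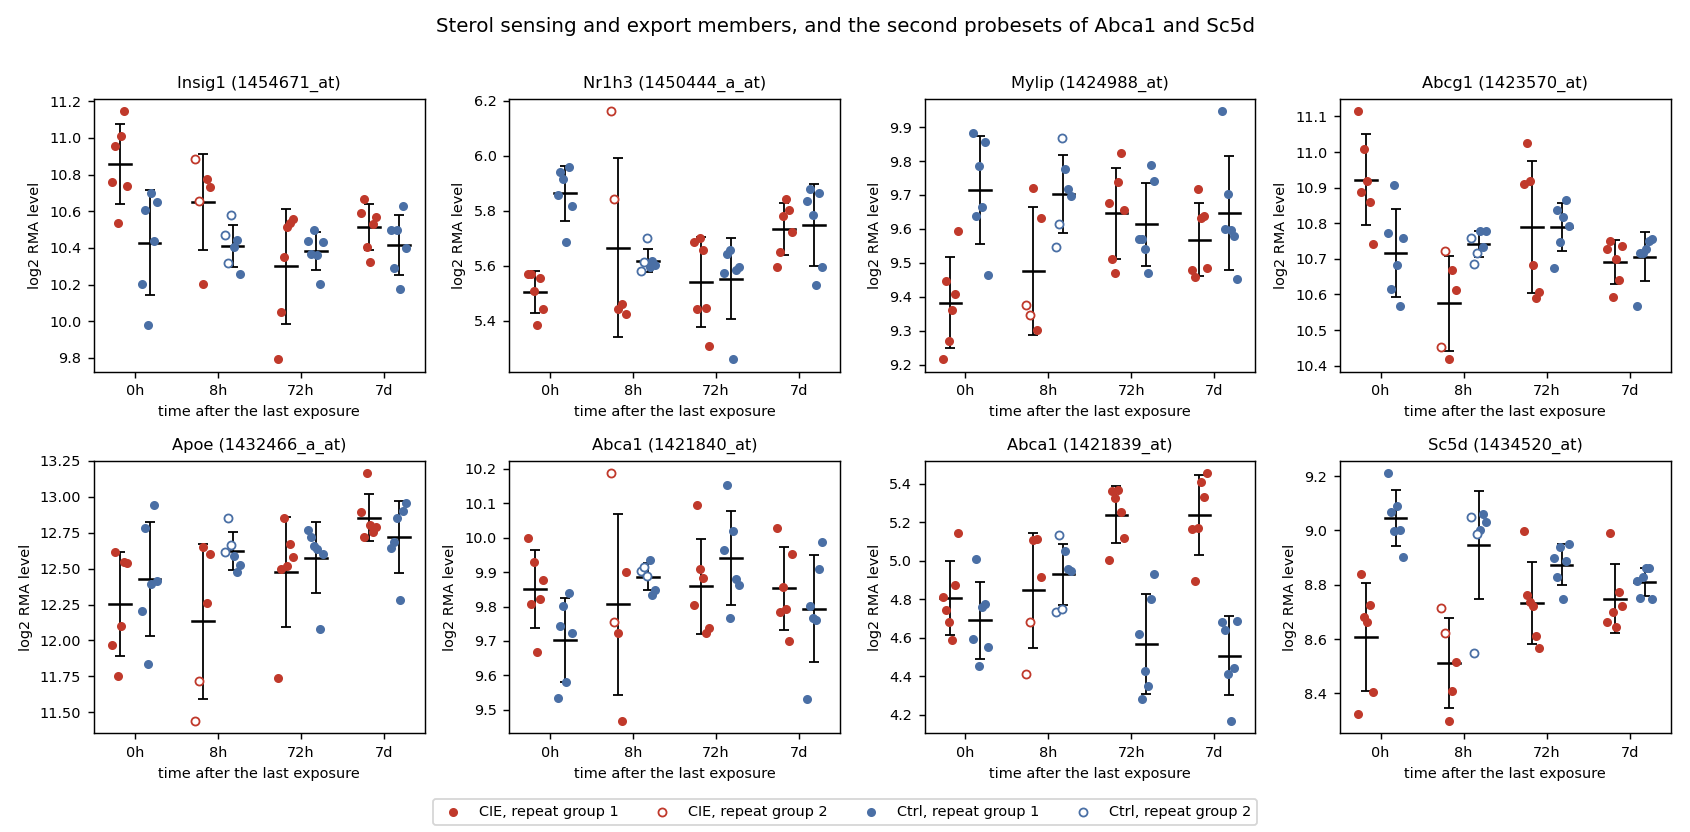
Log2 RMA level, 1 point per mouse, of Insig1, Nr1h3, Mylip, Abcg1, Apoe and Abca1 on their brightest probesets and of the dimmer probesets of Abca1 (mean level 4.85) and Sc5d (mean level 8.79), by time after the last exposure, with CIE in red left of Ctrl in blue, repeat group 2 as open points, and bars for the mean and SD. Nr1h3 at 0h and Abca1 on its dim probeset at 72h and 7d have no overlap between CIE and Ctrl, and the 2 lowest Apoe values at 8h are those of the CIE mice of repeat group 2.

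Synthesis and export were set side by side in each mouse by the mean deviation of its 17 synthesis and 7 export genes from the Ctrl mean of the same time. At 8h the synthesis deviation was -0.24, -0.01 and -0.05 in CIE mice 40, 51 and 69 and -0.37 and -0.17 in mice 15 and 23, against -0.12 to 0.07 in Ctrl mice. The export deviation of the same CIE mice was -0.06, -0.26 and -0.12 and, for mice 15 and 23, -0.23 and -0.14, against -0.02 to 0.04 in Ctrl mice. Both were negative in 5 of 5 CIE mice, and for export the 5 did not overlap with Ctrl. The export mean rests on brightest probesets. It includes Abcg4, whose probesets disagree in direction, and Apoe, with -0.03 in repeat group 1 and -1.13 in repeat group 2. How often the mean of another 7 genes would separate the groups was not tested. Synthesis minus export lay between -0.19 and 0.25 in CIE 8h mice and between -0.12 and 0.08 in Ctrl 8h mice, so neither arm was lower than the other in every mouse. At 0h the export deviation was negative in 6 of 6 CIE mice (-0.10 to -0.0041), which overlapped with Ctrl (-0.098 to 0.15). Yet 4 of the 7 export changes at 0h were positive and 3 negative, from -0.36 (Nr1h3) to 0.20 (Abcg1). The 2 called, Nr1h3 and Mylip, were among the negative ones, so the mean does not show export lower as a whole. The synthesis deviation at 0h was negative in 3 of 6 CIE mice (-0.10 to 0.16). The median changes at 0h, 8h, 72h and 7d were 0.01, -0.20, -0.07 and 0.02 for synthesis and 0.00, -0.17, -0.06 and -0.02 for export.

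**Figure D5:**
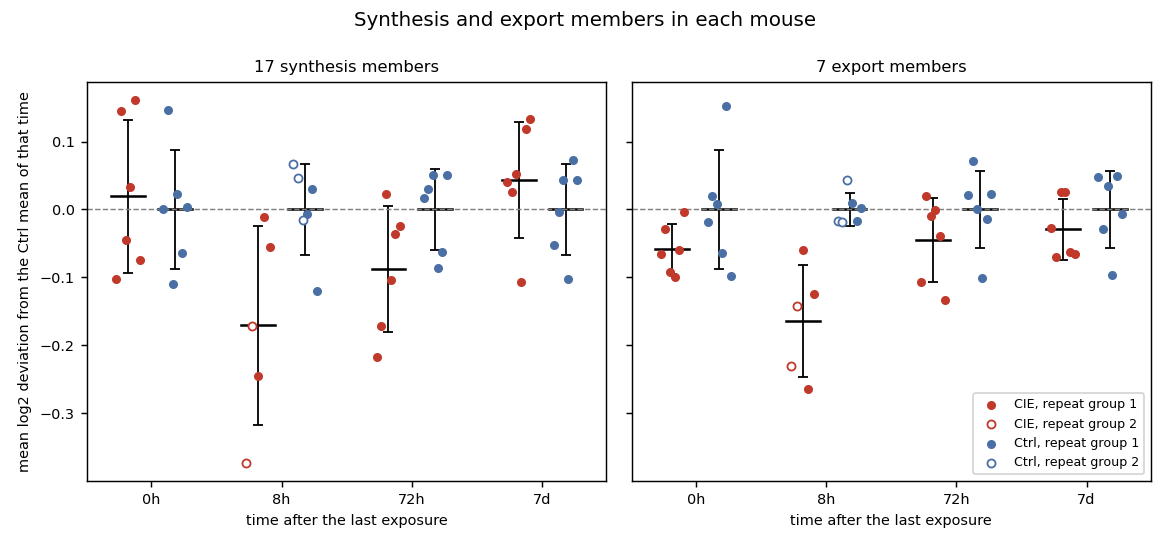
Mean log2 deviation of the 17 synthesis members (left) and the 7 export members (right) from the Ctrl mean of the same time, 1 point per mouse, by time after the last exposure, with CIE in red left of Ctrl in blue, repeat group 2 as open points, and bars for the mean and SD. At 8h all 5 CIE mice lie below 0 in both panels, from -0.37 to -0.01 for synthesis and from -0.26 to -0.06 for export.

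At 72h and at 7d no member was called on its brightest probeset, where 0.528% of all probesets were called at 72h and 0.948% at 7d. At an unadjusted p under 0.05 there were 1 member at 72h and 3 at 7d, where 14.3% and 17.5% of all probesets passed. Both counts of members lie below these shares. At 72h 27 of the 32 changes were negative (84.4%, against 50.8% of all probesets), yet small, with a median of -0.08. The lowest was Sc5d (-0.23, adjusted p = 0.36), below the Ctrl mean in 6 of 6 CIE mice. At 7d 18 changes were positive and 14 negative, with a median of 0.02 and Fdps the highest at 0.25 (adjusted p = 0.62).

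The differences between the ethanol effects at separate times were tested directly. Stard4 was the 1 member of 32 whose effect differed between 8h and 0h, by -0.60 ± 0.12 (SE, adjusted p = 0.0015), where 3.41% of all probesets passed. It was also the 1 whose effect differed between 8h and 7d, by -0.58 ± 0.12 (SE, adjusted p = 0.0041), where 1.80% passed. In both comparisons 1 member of 32 is near the background share. The other 2 Stard4 probesets gave -0.41 and -0.59 between 8h and 0h (adjusted p = 0.038 and 0.27). Between 8h and 7d they gave -0.37 and -0.89 (adjusted p = 0.067 and 0.082), and none of these passed. Neither difference on the brightest Stard4 probeset passed with repeat group 1 alone. Between 8h and 72h no member passed, and 0.00222% of all probesets did, so the fall at 8h was not shown to differ from the change at 72h for any member. Between 7d and 0h no member passed either, where 0.273% of all probesets did. Sc5d (-0.61, adjusted p = 0.014), Sqle (-0.43, adjusted p = 0.019) and Abcg1 (-0.37, adjusted p = 0.010) came close between 8h and 0h and did not pass.

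Across the 4 times, 11 of 32 members (34.4%) varied among the CIE groups by a moderated F test, against 10.0% of all probesets and 11.3% of the brightest probesets of all genes. They were Hmgcs1, Idi1, Sqle, Lss, Cyp51, Msmo1, Nsdhl and Sc5d in synthesis, Insig1, Stard4 and Abcg1. The CIE mean was lowest at 8h in 10 of the 11, and in Insig1 at 72h. Among the Ctrl groups 0 of 32 varied, against 1.72% of all probesets. Sqle had CIE means of 11.12, 10.69, 11.11 and 11.38 at 0h, 8h, 72h and 7d, against Ctrl means of 11.06, 11.06, 11.24 and 11.29. Whether the course over time differed between CIE and Ctrl rests on the contrasts above, not on these 2 F tests. The 8h means in these tests mix 2 repeat groups, while the other times hold repeat group 1 alone. Time and repeat group are therefore partly confounded here. With the 8h arrays of repeat group 1 alone 7 members varied among the CIE groups and 1 among the Ctrl groups. Without CIE 8h mouse 15, 6 varied among the CIE groups. The share of all probesets was not counted in these refits.

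Genes of related pathways outside the group gave 3 calls over the 4 times. Of 10 other genes of the isoprenoid branch, which shares farnesyl diphosphate, Dhdds (a subunit of the enzyme that makes the dolichol precursor) was lower at 0h by 0.32 (adjusted p = 0.0043) and none passed later. Of 8 other genes of SREBP processing and turnover, Erlin2 was higher at 0h by 0.32 (adjusted p = 6.3e-04) and Syvn1, a ubiquitin ligase of the endoplasmic reticulum, at 8h by 0.35 (adjusted p = 7.2e-04). None of 13 fatty acid synthesis genes passed at any time, with the smallest p at 0h for Acaca (0.23, adjusted p = 0.029) and Scd2 (0.16, adjusted p = 0.035). None of 25 other genes of sterol transport and turnover passed, Scp2 (-0.22, adjusted p = 0.016) and Gramd1b (0.31, adjusted p = 0.025) being the nearest at 8h. None of 6 other liver X receptor targets passed, with Pltp (-0.47, adjusted p = 0.042) and Smpdl3a (-0.16, adjusted p = 0.098) at 0h the nearest. Scd1 stood in both the fatty acid list and this one. The median changes of these 5 lists at 8h lay between -0.05 and 0.07, against -0.20 for synthesis.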

How the data were processed

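Total RNA from the medial PFC of 47 mice was hybridised to whole-genome Affymetrix mouse arrays, 1 mouse per array. The deposited values are log2 intensities made by the authors with RMA: background correction and quantile normalization within hybridization batch, quantile normalization across arrays, then ComBat with repeat group as the batch in PFC. The labels and methods name no versions of these tools. Group terms are not stated for ComBat, so an adjustment for repeat group could also move a group difference at 8h. The deposited values ranged from 2.82 to 14.7, with array medians of 6.39 to 6.42, and 0 pairs of arrays were identical. Arrays have no read depth, and their number limits the precision.

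Probesets were named from the platform annotation, with symbols updated through Entrez IDs in RefSeq. Of 45037 probesets, 34945 had 1 symbol, 932 several and 9160 none listed. Only probesets with 1 symbol were used for genes. A limma (version 3.58.1, R 4.3.3) model with 8 group means over the 47 arrays gave CIE minus Ctrl at each time, the differences between these effects, and moderated F tests across the 4 times. P-values were adjusted by the Benjamini-Hochberg method over all probesets and called at 0.01, the threshold of the study's methods. The fit was tested on simulated data. P-values measure the spread between mice. The members and lists were chosen with earlier results of these data known. A gene was read on the probeset of highest mean level, with probesets of suffix _x_at placed last. Values are given for members called at any time and for Srebf1, Srebf2, Insig1, Abca1, Abcg1, Apoe and Cyp46a1 whatever their result. Other members called on a second probeset are named with it. The remaining members were named, after their values were seen, to account for the group. Of each related list, the genes called are named or, where none was, the 2 of smallest p.

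The alternatives were array weights, repeat group as a term or repeat group 1 alone, a filter on dim probesets, a threshold of 0.05, a variance trend, another quantile normalization, other choices of probeset, fits by time, and leaving out each mouse. Leaving out arrays with a mean correlation below 0.99 was added after seeing the data.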

Additional observations from a re-analysis of the deposited data

Results flagged for a closer look

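Single mice stood far from the others of their group in 12 of 112 groups of values tested, where chance flags about 1 in 20. Mouse 79 of Ctrl 8h was the lowest of its group for Hmgcs1 (13.3, nearest 13.5) and for Sc5d (11.0, nearest 11.2). Mouse 18 of Ctrl 7d was the lowest for Sqle (11.1, nearest 11.3) and for Abcg1 (10.6, nearest 10.7). Mouse 46 of Ctrl 7d was the lowest for Sc5d (10.9, nearest 11.3), and mouse 29 of CIE 72h was the lowest for Stard4 (9.87, nearest 10.03). Both of these arrays correlated below 0.99 with the others. Nr1h3 was highest in mouse 50 of Ctrl 8h (5.70, nearest 5.62) and lowest in mouse 44 of Ctrl 72h (5.26, nearest 5.57). For Apoe, mouse 3 of CIE 72h read 11.7 (nearest 12.5) and mouse 52 of Ctrl 72h read 12.1 (nearest 12.6), each the lowest of its group. For Cyp46a1, mouse 37 of CIE 7d was the highest (11.0, nearest 10.8) and mouse 44 of Ctrl 72h the lowest (10.8, nearest 10.9).

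Effects of CIE that differed between times by the test of the difference were those of Stard4 on its brightest probeset, lower at 8h than at 0h by 0.60 (difference -0.60) and than at 7d (difference -0.58). Between 8h and 7d the effect also differed on second probesets of Hmgcs1 (mean level 11.7, -0.73, adjusted p = 0.0068), Msmo1 (mean level 6.11, -0.99, adjusted p = 0.0055) and Abca1 (mean level 4.85, -0.81, adjusted p = 0.0039).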

How the results depend on the processing

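The 5 members called lower at 8h stayed negative under all alternatives. The number of members called lower or higher at 8h was 3 with array weights (Cyp51 and Sc5d of the 5, and Abcg4), 3 on the most variable probeset, 8 at a threshold of 0.05, 0 with the arrays of that time alone, 0 with repeat group 1 alone, 2 without the arrays correlating below 0.99 and 0 to 5 with 1 mouse left out (0 without CIE mouse 23, 1 without CIE mouse 15 or Ctrl mouse 75, 2 without CIE mouse 40 or Ctrl mouse 32, 42 or 50, and 3 without Ctrl mouse 66). Of all 45037 probesets, 6772 were called at 8h with array weights, 1187 with repeat group 1 alone and 907 without the arrays below 0.99. The main fit called 1028 higher and 499 lower. With array weights the share of members called was thus not above that of all probesets. The synthesis median at 8h was -0.0897 with array weights, -0.0853 with repeat group 1 alone and -0.0601 without the arrays below 0.99. At 0h the count was 1 with dim probesets left out, 5 at 0.05, 1 with that time alone, 1 without the arrays below 0.99 and 0 to 3 with 1 mouse left out (0 without Ctrl mouse 56, 1 without CIE mouse 5 or 43 or Ctrl mouse 2, 12 or 20, 3 without CIE mouse 72 or Ctrl mouse 48 or 78). The most variable probeset gave 1 call each at 72h and 7d, and the mean of all probesets 1 at 7d. The effect at 8h minus that at 0h was called in 3 members with array weights, 3 with repeat group as a term, 5 at 0.05, 2 with the variance trend, 0 on the most variable probeset, 0 on the mean of probesets, 0 with repeat group 1 alone and 1 to 3 with 1 mouse left out (3 without CIE 8h mouse 51, and 2 without CIE 0h mouse 17 or 72, CIE 8h mouse 23 or 69 or Ctrl 0h mouse 20). For 8h minus 7d the counts were 3 at 0.05, 2 on the most variable probeset, 3 on the mean, 0 with repeat group 1 alone and 0 without the arrays below 0.99. Across the CIE times 17 members passed at 0.05, 7 with repeat group 1 alone, 7 without the arrays below 0.99 and 6 to 11 with 1 mouse left out (6 without CIE 8h mouse 15). Across the Ctrl times 4 passed with array weights, 2 with repeat group as a term and 1 with repeat group 1 alone. The export median at 7d was -0.0786 on the most variable probeset and on the mean of probesets, -0.0590 without the arrays below 0.99, and -0.0590 (without Ctrl mouse 46) to -0.0064 with 1 mouse left out. Changes of sign that moved a value by more than 1 SE or were called, none of them in a value called in the report, were Nr1h3 at 8h (-0.13 with array weights, -0.16 with repeat group 1 alone, -0.18 without the arrays below 0.99, and -0.0763 to 0.11 with 1 mouse left out), Cyp51 at 0h (0.0525, most variable probeset), Sc5d at 0h (-0.22, mean of probesets), Srebf2 at 8h (-0.29 and -0.14, most variable and mean), Stard4 at 72h (0.0922, most variable), Abca1 at 72h (0.67 and 0.17, most variable and mean), Abcg1 at 72h (-0.12, most variable, and -0.0894, without the arrays below 0.99) and Insig1 at 72h (0.11, without the arrays below 0.99). Smaller changes of sign in uncalled values near 0 are not listed in full. Examples are Sqle at 0h (-0.021 to 0.13), Apoe at 72h (-0.20 to 0.077) and the synthesis median at 0h (-0.027 to 0.047). Apart from the smaller number of arrays in some of these fits, the cause was not tested. No paired analysis was possible because no mouse number occurs in more than 1 group.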
